A study of Mus musculus with 8 samples.

Results

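The response of control mouse epidermis to imiquimod (IMQ) was described from 4 of the 8 libraries of the series, the 2 of IMQ-treated controls and the 2 of untreated controls, chosen by their labels. Polyadenylated RNA was sequenced from back skin epidermis of CD1 mice, an outbred stock, after the epidermis had been freed from the dermis with dispase. The untreated controls were Ovol1 +/- and received no treatment, and the treated controls were Ovol1 +/+ and received IMQ. The other 4 libraries, labelled Ovol1 -/-, untreated or under IMQ, entered the same fit and gave the comparison at the end. Ovol1 is a transcription factor with zinc fingers, found in layered epithelia. Each group held 1 female and 1 male library, and pairs of values are given in that order throughout. The dose, the number of applications, the hour of collection and the ages are not stated in the labels, and the untreated mice were not described as vehicle-treated. IMQ, the Ovol1 genotype of the controls and the table in which the values were deposited differed together between the 2 control groups, so their effects cannot be told apart. Nothing in the labels says whether the libraries of a group came from separate cages, litters or days, so p-values measure the spread between these libraries. The control libraries held 43080052 and 33704317 reads untreated and 33087644 and 28600596 under IMQ.

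IMQ activates Toll-like receptor 7, an endosomal receptor for single-stranded RNA that is best known from plasmacytoid dendritic cells and macrophages. Engaged receptors signal through MyD88 to NF-kappaB and to IRF7, which drive inflammatory cytokines and type I interferon. Applied to mouse skin, IMQ gives a psoriasis-like inflammation in which IL-23 and IL-17 from dendritic cells and T cells act on keratinocytes, which answer with chemokines, antimicrobial proteins and IL-36 and thicken the epidermis.

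The promoters of 3 interferon-induced genes and 3 chemokine genes, which carried some of the largest changes, are shown because both groups hold letters known as binding sites. Each run is the 150 bases before the RefSeq gene start on GRCm38.p6, written along the strand of the gene. Capitals mark GAAA, any 2 bases and GAAA on either strand, the core letters of the interferon-stimulated response element, with overlapping matches run together. Isg15 lies on the minus strand at chr4:156200819-156200968, Ifit1 on the plus strand at chr19:34640739-34640888 and Rsad2 on the minus strand at chr12:26456453-26456602.
Isg15: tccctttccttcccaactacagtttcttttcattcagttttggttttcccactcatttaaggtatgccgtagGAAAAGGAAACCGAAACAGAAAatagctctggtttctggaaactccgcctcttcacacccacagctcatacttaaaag
Ifit1: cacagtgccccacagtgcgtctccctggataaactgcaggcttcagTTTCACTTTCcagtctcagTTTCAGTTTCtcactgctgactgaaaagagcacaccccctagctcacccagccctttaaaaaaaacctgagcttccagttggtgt
Rsad2: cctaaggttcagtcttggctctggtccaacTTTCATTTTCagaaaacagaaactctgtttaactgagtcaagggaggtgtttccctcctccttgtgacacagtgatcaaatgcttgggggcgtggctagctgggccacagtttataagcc
Of the 28 interferon response genes with a promoter in the RefSeq table, 13 held these letters within 250 bases before the start, against 3.46% of all 27025 genes in the table.

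In the second set, capitals mark GGG, any 2 bases and TTTCC on either strand, letters of the NF-kappaB binding site. Cxcl1 lies on the plus strand at chr5:90891095-90891244, Cxcl2 on the plus strand at chr5:90903749-90903898 and Ccl20 on the plus strand at chr1:83116616-83116765.
Cxcl1: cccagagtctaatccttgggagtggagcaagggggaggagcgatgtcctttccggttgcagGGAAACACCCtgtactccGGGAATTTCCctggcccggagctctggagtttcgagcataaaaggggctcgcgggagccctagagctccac
Cxcl2: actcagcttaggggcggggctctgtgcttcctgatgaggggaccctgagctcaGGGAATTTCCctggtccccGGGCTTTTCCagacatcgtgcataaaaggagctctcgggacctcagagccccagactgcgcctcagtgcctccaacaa
Ccl20: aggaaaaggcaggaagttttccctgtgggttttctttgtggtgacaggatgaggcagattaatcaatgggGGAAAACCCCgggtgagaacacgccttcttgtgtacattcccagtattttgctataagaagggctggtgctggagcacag
Among 7 genes for neutrophil-attracting chemokines and colony-stimulating factors with a promoter in the table, 4 held these letters, against 1.65% of all genes. Ccl20 belongs to the list of other chemokines, of which 1 of 15 with a promoter held them. The AP-1 site letters TGANTCA stood in 9 of 20 Lce3 and Sprr promoters, against 7.82% of all genes. They also stood in 8 of 28 interferon response promoters and in 0 of 17 antimicrobial ones. The looser C/EBP letters TTNNGNAA stood in 18 of 20 Lce3 and Sprr promoters, against 40.3% of all genes. These tallies were picked from 11 motifs searched in several lists, and a match of letters is not a measured binding site.

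Control epidermis under IMQ differed from untreated control epidermis at 4593 of 14262 genes tested (32.2%), of which 2528 were higher (17.7%) and 2065 lower (14.5%). The test was limma on log2 of CPM (reads scaled to a common library size) plus 0.5, with Benjamini-Hochberg adjustment over all genes tested and a threshold of 0.05 (called genes). "Rose" and "fell" are used of called genes. Fold changes are on that log2 scale, which understates the change of genes with few reads. Of the calls, 969 were at least 2-fold higher and 913 at least 2-fold lower, and at least 10-fold changes were found in 48 genes that rose and 3 that fell. All 4593 differed in the same direction in the female and the male pair. Over all tested genes the groups did not overlap at 67.8%. Calls were fewest without the male untreated control, at 2663, and a gene whose values are given below without a further remark kept its call with each of the 8 libraries left out in turn, as 1882 called genes did (41.0%). Genes named without values were called in the full set, and many lost the call with a library left out, as the ranges given for the lists count. Where libraries tied for the fewest calls of a list, only the first was named, so the count does not single that library out. Such ties held for the cell cycle, AP-1, late differentiation and Lce3 and Sprr lists, among others.

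The share of higher genes among the calls was 55.0%, and it was 39.9% with upper-quartile scaling and 26.9% with the deposited scaling, which moved the median of all genes to -0.11 and -0.25 on the log2 scale. The main scaling had a median of 0.02. The plot of gene lists sets the share of called members beside the background in each direction. Genes with few untreated reads passed the filter on low counts only through their level under IMQ, so counts over lists describe these libraries and support nothing further.

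**Figure D1:**
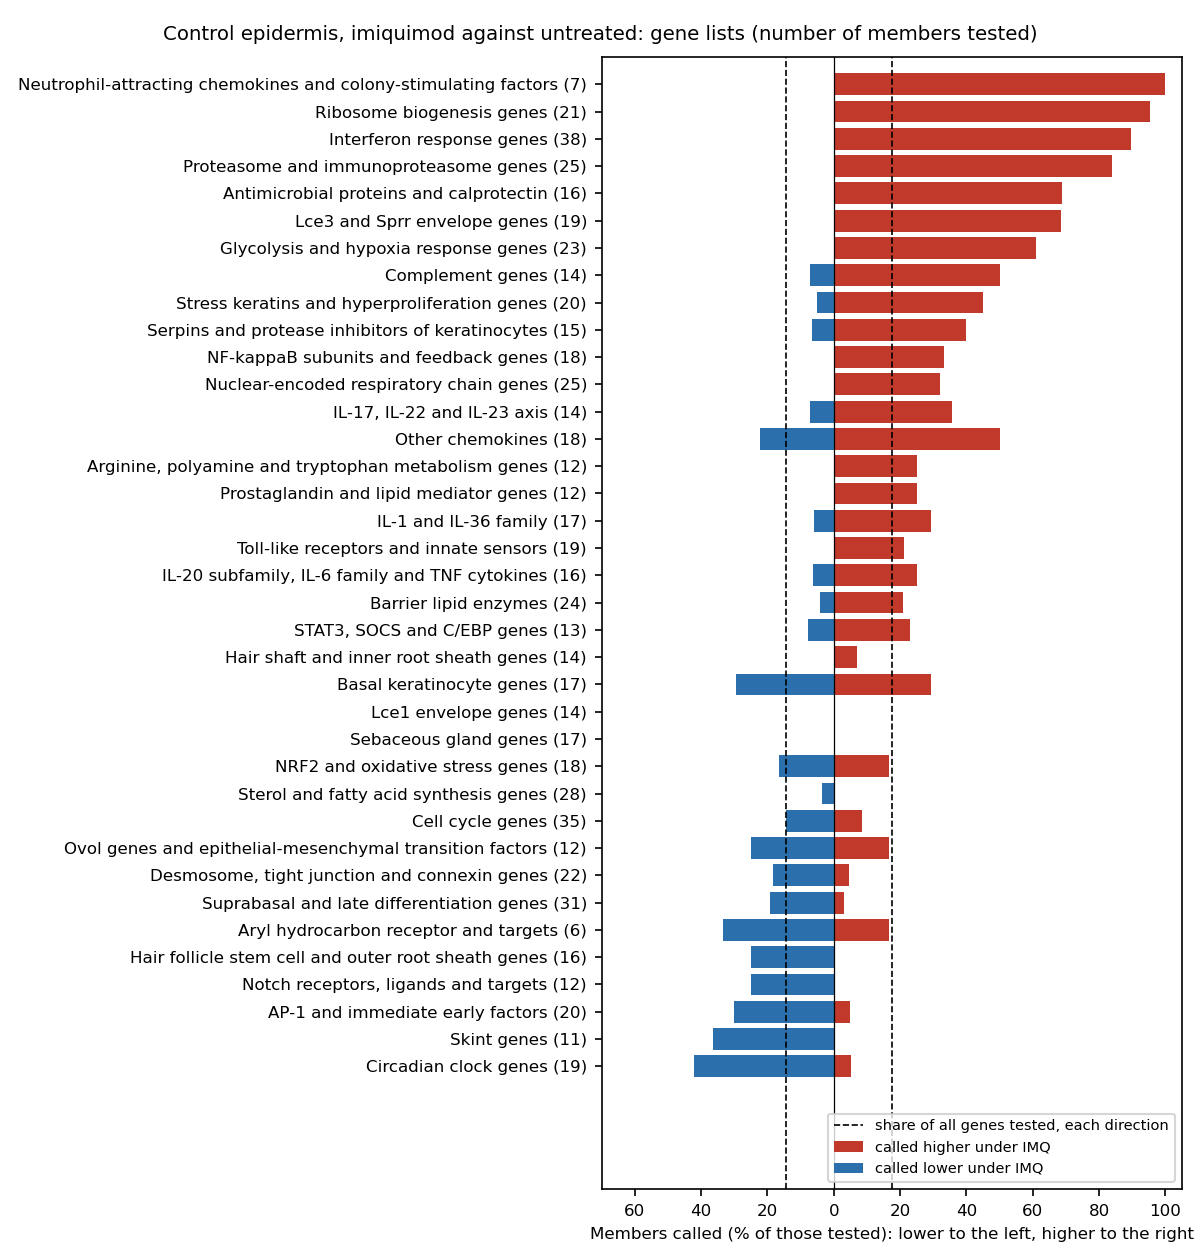
Share of tested members called higher (red, to the right) and called lower (blue, to the left) in each gene list, with the number tested in parentheses, for IMQ against untreated control epidermis; marker lists of other cells and the histone list are not drawn. Dashed lines mark the 17.7% and 14.5% of all tested genes called in each direction; the lists on neutrophil-attracting chemokines, ribosome biogenesis and interferon response reach farthest to the right, and the circadian clock and Skint lists, of those drawn, farthest to the left.

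The libraries held keratinocyte RNA at high levels in both groups. Krt5 and Krt14, the keratins of the basal layer, stood at 6491 and 5280 CPM and at 6294 and 5036 CPM untreated, and at 6524 and 6051 CPM and 7708 and 8372 CPM under IMQ. Krt1 and Krt10, the keratins of the layers above, ranged from 1471 to 2741 CPM and from 6388 to 8888 CPM over the 4 libraries. None of these 4 keratins was called. Ovol1 (chr19:5549136-5560646) stood at 447 and 392.4 CPM in the +/- untreated controls and at 249.6 and 310.0 CPM in the +/+ controls under IMQ. It was 1.504-fold lower (log2 fold change -0.59 ± 0.14 (SE), adjusted p = 0.0199), a call lost without the female IMQ control (adjusted p = 0.089) or the female untreated control (adjusted p = 0.0689). Its paralog Ovol2 stood at 6.36 and 9.71 CPM untreated and 5.55 and 4.52 CPM under IMQ and was not called (adjusted p = 0.113).

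Interferon response genes rose almost as a whole: 34 of 38 were called higher and none lower, with a median log2 fold change of 2.80. Rsad2, which encodes the antiviral enzyme viperin, stood at 0.603 and 1.53 CPM untreated and at 91.3 and 32.3 CPM under IMQ. It rose 36.7-fold (log2 fold change 5.197 ± 0.52, adjusted p = 0.00167). Mx1, an antiviral GTPase, went from 0.371 and 0.202 CPM to 29.8 and 15.4 CPM (4.81 ± 0.31, adjusted p = 0.000742). Both treated libraries lay above both untreated ones for each of these genes, and the female treated library held the higher level. Ifit1, which binds foreign RNA caps, rose from 0.626 and 2.57 CPM to 59.996 and 27.5 CPM, and the ubiquitin-like Isg15 from 5.59 and 12.2 CPM to 99.9 and 59.0 CPM (log2 fold changes 4.47 ± 0.55 and 3.14 ± 0.37). Cmpk2, a mitochondrial nucleotide kinase next to Rsad2 in the genome, rose by 4.75 ± 0.39 on the log2 scale (adjusted p = 0.00123), and the tetherin gene Bst2 by 2.10 ± 0.35.

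Irf7, the factor that amplifies type I interferon, stood at 10.4 and 37.2 CPM untreated and 67.8 and 35.2 CPM under IMQ, so its groups overlapped (adjusted p = 0.116; 0.0214 without the male untreated control). The other members not called were Irf1, Ifi27l2a and Herc6. Between 28 and 35 members were called higher with a library left out, the fewest without the female untreated control.

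Among Toll-like receptors and innate sensors, 4 of 19 tested genes rose and none fell (17.7% and 14.5% of all tested genes). Tlr7, the receptor of IMQ, was under the filter on low counts, at 0.0696 and 0.173 CPM untreated and 0.390 and 0.482 CPM under IMQ. Its adaptor Myd88 stood at 108 and 118 CPM and at 116 and 156 CPM (adjusted p = 0.262). Tlr2, a receptor for bacterial lipoproteins, was not called either (log2 fold change 0.82 ± 0.28, adjusted p = 0.0601; 0.0166 without the male IMQ control). Zbp1, a sensor of Z-form nucleic acids that is also interferon-induced, rose from 0.371 and 0.491 CPM to 9.69 and 3.82 CPM (2.84 ± 0.41, adjusted p = 0.00388). The others were Irak1, Nod2 and Cd14, and between 2 and 5 genes of the list were called with a library left out, the fewest without the female IMQ control.

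In the axis of IL-23, IL-17 and IL-22, 5 of 14 genes rose. Il17f, a T cell cytokine that acts on keratinocytes, went from 0.116 and 0.0867 CPM to 1.71 and 2.0004 CPM (log2 fold change 1.97 ± 0.23, adjusted p = 0.00228). Il17a, its close relative, went from 0.139 and 0 CPM to 0.900 and 1.19 CPM (1.44 ± 0.30, adjusted p = 0.0108), a call lost without the male IMQ (adjusted p = 0.050022) or the male untreated control (0.0629). Il17c, the member of the family made by epithelial cells, rose by 2.19 ± 0.30 (adjusted p = 0.00323). Zc3h12a, the RNase that degrades IL-17-induced messages, rose from 183 and 177 CPM to 390.4 and 427 CPM (1.18 ± 0.14, adjusted p = 0.00248). Il17a and Il17f reached at most 2.0004 CPM in any control library. The receptor chain gene Il17rc was the other to rise. Il23a, a subunit of IL-23, stood at 3.48 and 2.02 CPM and at 3.66 and 4.96 CPM (adjusted p = 0.312). With a library left out, 3 to 5 genes of the axis were called higher, the fewest without the male IMQ control.

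In the IL-1 and IL-36 family, 5 of 17 genes rose and 1, Il1rap, fell. Il1f6 encodes IL-36 alpha, an epithelial alarm cytokine of psoriasis. It stood at 1.72 and 3.005 CPM untreated and at 39.7 and 88.4 CPM under IMQ and rose 21.4-fold (log2 fold change 4.42 ± 0.53, adjusted p = 0.00242). Il1f9, which encodes IL-36 gamma, stood at 44.8 and 54.1 CPM and at 107 and 317 CPM (1.89 ± 0.50, adjusted p = 0.0263). The call of Il1f9 was lost without the male IMQ (0.0891), the female untreated (0.106) or the male untreated control (0.0771). Il1a, the IL-1 form stored in keratinocytes, rose from 13.4 and 10.6 CPM to 36.03 and 42.4 CPM (1.67 ± 0.18, adjusted p = 0.0018), and Il18rap, a chain of the IL-18 receptor, by 1.78 ± 0.27. Il1b, made mostly by myeloid cells, had separate groups that varied within themselves, 59.3 and 15.4 CPM against 154 and 69.8 CPM (adjusted p = 0.096; 0.038 without the female untreated control). The antagonist gene Il1rn stood at 335 and 236 CPM and at 207 and 311 CPM (adjusted p = 0.66). Il1rl2, the IL-36 receptor, was the remaining gene to rise, and 3 to 5 members were called higher with a library left out, the fewest without the male untreated control.

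Among IL-20 subfamily, IL-6 family and TNF cytokines and receptors, 4 of 16 rose and 1 fell (17.7% and 14.5% of all tested genes). Lif, an IL-6 family cytokine, went from 0.464 and 0.578 CPM to 6.96 and 7.30 CPM (log2 fold change 2.90 ± 0.40, adjusted p = 0.00323). Il24 was called (1.90 ± 0.58, adjusted p = 0.0425) and its relatives Il19 (1.52 ± 0.57, adjusted p = 0.0758) and Il20 (0.51 ± 0.37, adjusted p = 0.323) were not. The call of Il24 was lost without the male IMQ (0.187), female untreated (0.0602) or male untreated control (0.192) and without either IMQ knockout library (0.0513 and 0.0519). Il19 was called without the female IMQ control (0.00847). Tnf stood at 18.9 and 10.1 CPM untreated and 27.1 and 24.8 CPM under IMQ (adjusted p = 0.128). The TNF receptor genes Tnfrsf1a and Tnfrsf1b rose and the IL-6 receptor gene Il6ra fell. On leaving out a library, 1 to 5 members were called higher, the fewest without the male IMQ control.

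All 7 tested genes for neutrophil-attracting chemokines and colony-stimulating factors rose, with a median log2 fold change of 3.48. Cxcl1 (chr5:90891241-90893115) stood at 4.82 and 3.24 CPM untreated and at 106 and 124 CPM under IMQ and rose 25.8-fold (4.69 ± 0.28, adjusted p = 0.000719). Cxcl2 went from 5.82 and 3.35 CPM to 81.1 and 52.2 CPM (3.73 ± 0.37, adjusted p = 0.00166). Both chemokines attract neutrophils through the receptor CXCR2, and their promoters are among those shown above. Cxcr2 itself went from 1.30 and 1.18 CPM to 19.0 and 35.6 CPM (3.93 ± 0.47, adjusted p = 0.00247). Csf2, which encodes GM-CSF, rose from 0.0928 and 0.202 CPM to 5.07 and 8.85 CPM (3.48 ± 0.60, adjusted p = 0.00605). Cxcl3 had 2 reads over the untreated controls and 211 under IMQ, a ratio of 136 with an exact 95% interval of 37.2 to 1130 that covers counting error only. Csf3, the granulocyte growth factor G-CSF, was called (2.54 ± 0.60, adjusted p = 0.0181) but not without the female untreated (0.0641) or male untreated control (0.0775). Csf1 was the remaining call, and Cxcl5, with 0 untreated reads and 11 under IMQ, was under the filter on low counts. The summed level of the neutrophil markers was 256 and 244 CPM untreated and 491 and 288 CPM under IMQ. Little of the untreated sum came from Cxcr2 or from Csf3r, Retnlg, Camp and Clec4d, which had 1 untreated read each. The part of neutrophils in the rise of Cxcr2, a member of both lists, was not tested.

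Of 18 other chemokine genes and receptors, 9 rose and 4 fell. Ccl20, which attracts CCR6-bearing T cells and dendritic cells, stood at 7.45 and 16.3 CPM untreated and at 183 and 269 CPM under IMQ (log2 fold change 4.27 ± 0.40, adjusted p = 0.00153). The interferon-induced T cell chemokine Cxcl10 went from 1.37 and 2.14 CPM to 88.0 and 42.3 CPM (4.79 ± 0.48, adjusted p = 0.00167). Its relatives Cxcl9 and Cxcl11 rose by 3.74 ± 0.47 and 3.19 ± 0.44. These 3 receptor-sharing chemokines were all higher in the female than in the male treated library. Ccl2, which attracts monocytes, rose from 3.73 and 5.52 CPM to 39.2 and 22.2 CPM (2.57 ± 0.42, adjusted p = 0.00528). Cxcl13, a B cell chemokine, had 0 reads in both untreated controls and 103 under IMQ, at least 44.2-fold higher against a floor of 3 reads over the group. Ccl27a, the chemokine made constitutively by keratinocytes, fell from 85.03 and 98.2 CPM to 54.7 and 36.5 CPM (-1.02 ± 0.28, adjusted p = 0.0299). That call was lost without the male IMQ (0.143), female untreated (0.0679) or male untreated control (0.117). Cxcl12, Cx3cl1 and Ackr2 were the other members to fall, and 2 to 5 fell with a library left out, the fewest without the female untreated control.

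Genes for antimicrobial proteins rose at 11 of 16 tested members and fell at none, with a median log2 fold change of 2.42. Lcn2, the iron-sequestering lipocalin, stood at 0.487 and 0.896 CPM untreated and at 17.3 and 74.8 CPM under IMQ and rose 31.2-fold (4.96 ± 0.58, adjusted p = 0.00232). S100a8 and S100a9, the subunits of calprotectin, went from 1.25 and 1.96 CPM to 11.5 and 69.6 CPM and from 1.18 and 4.88 CPM to 27.6 and 165 CPM (3.80 ± 0.75 and 4.50 ± 0.85). For all 3 the male treated library lay far above the female one, and the female one above both untreated controls. Slpi, a leukocyte protease inhibitor, went from 3.97 and 3.79 CPM to 77.8 and 138 CPM (4.58 ± 0.42, adjusted p = 0.00144). The chitinase-like gene Chil1 rose by 4.63 ± 0.67. The acute-phase gene Saa3 had 0 untreated reads and 187 under IMQ, at least 80.3-fold higher, and the beta-defensin gene Defb3 had 2 and 240, a ratio of 155 (exact 95% interval 42.3 to 1284). With a library left out, 8 to 12 members were called higher, the fewest without the female untreated control.

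**Figure D2:**
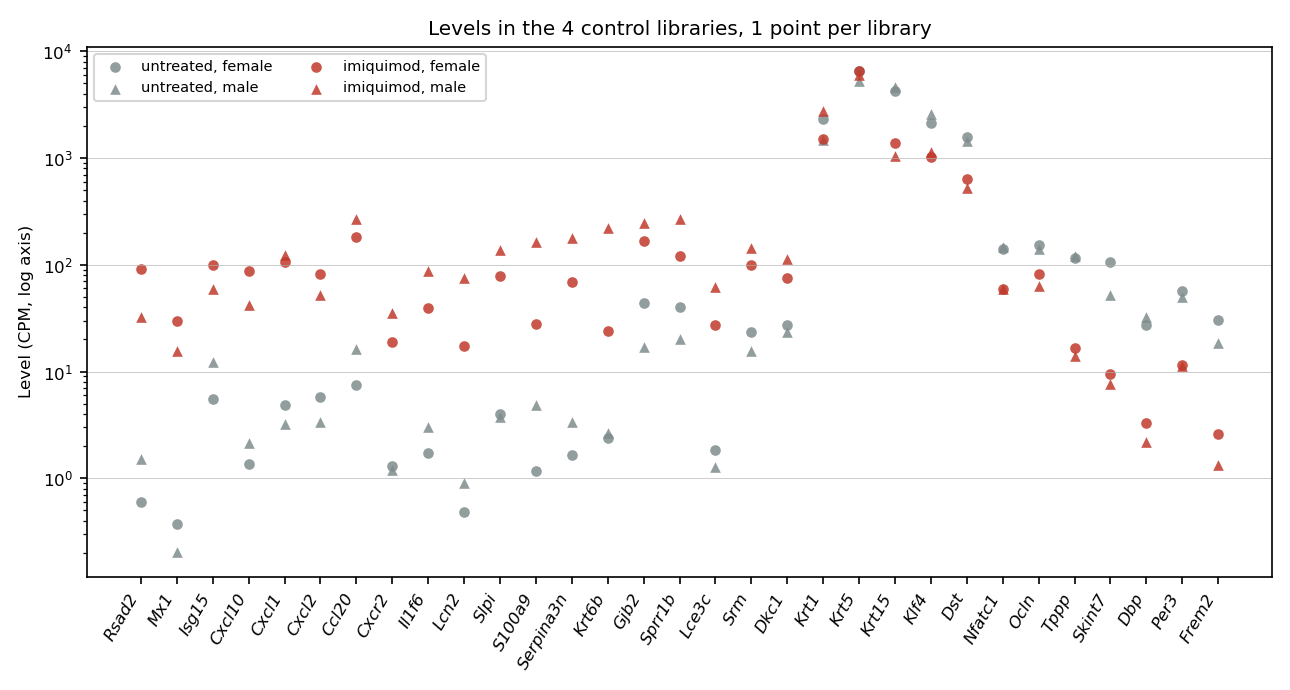
Level of 31 genes (CPM, log axis) in each of the 4 control libraries; circles are female, triangles male, grey untreated and red IMQ. From Rsad2 to Dkc1 both red points lie above both grey points, Krt1 and Krt5 overlap, and from Krt15 to Frem2 both red points lie below; Rsad2, Mx1 and Cxcl10 are higher in the treated female and Lcn2, S100a9 and Krt6b in the treated male.

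Keratinocyte stress genes rose at 9 of 20 members (6 to 9 with a library left out). Krt6a, a keratin of wounded and hyperproliferative epidermis, went from 425 and 282 CPM to 874 and 1038 CPM (log2 fold change 1.46 ± 0.23, adjusted p = 0.00496). Krt6b, its paralog, went from 2.37 and 2.69 CPM to 23.8 and 219.6 CPM (4.598 ± 0.90, adjusted p = 0.00922), a call lost without the female untreated (0.0537) or male untreated control (0.0508). Krt16, their partner keratin, varied widely within the untreated controls, at 549 and 116 CPM, and stood at 1248 and 1921 CPM under IMQ (2.61 ± 0.68, adjusted p = 0.0244). It was not called without the female IMQ (0.0529), male IMQ (0.108) or male untreated control (0.0689). Krt17 missed the threshold (0.67 ± 0.22, adjusted p = 0.0529; 0.0213 without the female IMQ control). The gap junction genes Gjb2 and Gjb6, for connexins 26 and 30, rose by 2.87 ± 0.43 and 2.21 ± 0.18, and Plaur, the urokinase receptor, by 2.30 ± 0.40. Ecm1 was the member that fell. The paralogs Krt6a and Krt6b are near-identical in sequence, so reads may be split between them by the counting, which is not given.

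The Lce3 and Sprr genes, envelope proteins of injured or psoriatic epidermis, rose at 13 of 19 tested members and fell at none, with a median log2 fold change of 2.06 (2.63 with the genes at 0 untreated reads set to their bound). Lce3c went from 1.83 and 1.27 CPM to 27.0 and 61.3 CPM (4.34 ± 0.35, adjusted p = 0.00123). Sprr1b went from 40.01 and 20.02 CPM to 119.6 and 269 CPM (2.64 ± 0.41, adjusted p = 0.00464). Sprr2i, from 0.858 and 0.0867 CPM to 18.3 and 54.9 CPM, rose 36.2-fold (5.18 ± 0.59, adjusted p = 0.00215), and Sprr2e by 3.15 ± 0.55. In each of these genes the male treated library was the highest of the 4. Lce3b and Sprr2b were not called. They had 0 untreated reads and 46 and 56 under IMQ, at least 19.8-fold and 24.0-fold higher by the bound, which covers counting error only. Members of the Sprr2 cluster are similar in sequence and may share reads. Leaving out a library, 7 to 15 members were called, the fewest without the male IMQ control.

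Lce1 genes, which code for envelope proteins of normal cornification, showed no such change: 0 of 14 were called by limma, by DESeq2 or by edgeR, 0 had an unadjusted p under 0.05, the median log2 fold change was 0.03, and with a library left out at most 1 was called. Lce1b stood at 133 and 186 CPM untreated and 97.0 and 190.1 CPM under IMQ, and Lce1c at 107 and 128 CPM and 81.6 and 159.6 CPM. Of 31 suprabasal and late differentiation genes 1 rose and 6 fell (17.7% and 14.5% of all tested genes). Lor, the loricrin gene, stood at 1752 and 3915 CPM and at 2234 and 3732 CPM (adjusted p = 0.856). Flg, the filaggrin gene, stood at 32.3 and 49.0 CPM and at 15.1 and 36.1 CPM (adjusted p = 0.256). Klf4, a transcription factor of barrier formation, fell from 2136 and 2584 CPM to 1020 and 1138 CPM (-1.12 ± 0.25, adjusted p = 0.0137), a call lost without the female IMQ (0.0587) or male untreated control (0.0646). Rptn, for the envelope protein repetin, fell by 1.57 ± 0.34 on the log2 scale (adjusted p = 0.0132; 0.0597 without the female IMQ and 0.057 without the male untreated control). Cnfn was the gene that rose and Tchh, Dsg1a, Zfp750 and Ovol1 were the others that fell. With a library left out 2 to 6 genes fell, the fewest without the female IMQ control.

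Basal keratinocyte genes divided, with 5 of 17 higher and 5 lower. Krt15, a keratin of resting basal and hair follicle bulge cells, fell from 4236 and 4671 CPM to 1384 and 1054 CPM (log2 fold change -1.88 ± 0.20, adjusted p = 0.00186). Dst, which encodes the hemidesmosome linker BPAG1, fell from 1587 and 1446 CPM to 639 and 525 CPM (-1.39 ± 0.15, adjusted p = 0.002). Sostdc1, a secreted inhibitor of BMP and Wnt signals, fell from 23.7 and 28.9 CPM to 5.13 and 1.63 CPM (-2.95 ± 0.41, adjusted p = 0.00336). In all 3 both treated libraries lay well below both untreated ones. Trp63, the master factor of stratified epithelium, rose from 579.5 and 409 CPM to 922 and 859 CPM (0.87 ± 0.19, adjusted p = 0.0133), a call lost without the female IMQ (0.0551) or male untreated control (0.0554). Itgb4, the hemidesmosome integrin, was not called (0.36 ± 0.15, adjusted p = 0.111). Itga6, Itgb1, Itga3 and Lama5 were the other genes that rose, and Lamb3 and Col7a1 the others that fell. None of the 5 rises was called without the male untreated control, and 4 or 5 falls were called with any library left out.

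Junction genes fell at 4 of 22 members and rose at 1 (14.5% and 17.7% of all tested genes). Cldn8, a tight junction claudin, fell from 5.40 and 6.99 CPM to 0.480 and 0.111 CPM (log2 fold change -3.10 ± 0.28, adjusted p = 0.00144), and Ocln, for occludin, from 153 and 141 CPM to 82.1 and 63.2 CPM (-1.03 ± 0.16, adjusted p = 0.00463). Cldn1, the main claudin of the epidermal barrier, stood at 1395 and 935 CPM and at 788 and 597 CPM (adjusted p = 0.048). Its call was lost without any 1 of 7 libraries, with adjusted p-values of 0.0533 (female IMQ control), 0.213 (male IMQ control) and 0.181 (female untreated control) and of 0.0568 to 0.068 without a knockout library. The desmosomal cadherin gene Dsg3 was not called (0.81 ± 0.27, adjusted p = 0.0547), though it was without the female IMQ control (0.0442) or without either IMQ knockout library (0.0373 and 0.0381). Gja1, for connexin 43, did not move in 1 direction (515 and 306 CPM against 319.6 and 455 CPM). Dsg2 was the fourth gene to fall and Pkp1 the gene that rose, and 2 to 4 genes fell with a library left out.

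Hair follicle stem cell and outer root sheath genes fell at 4 of 16 members and rose at none (14.5% and 17.7% of all tested genes). Nfatc1, which holds bulge stem cells in quiescence, stood at 141 and 147 CPM untreated and at 59.2 and 59.2 CPM under IMQ (log2 fold change -1.28 ± 0.14, adjusted p = 0.00212). Lgr5, a Wnt-responsive stem cell receptor, fell by 1.01 ± 0.26 (adjusted p = 0.0257; 0.12 without the male IMQ and 0.119 without the male untreated control). Lrig1 and Fst were the others, and 2 to 5 members fell with a library left out, the fewest without the male untreated control. Cd34, a bulge marker, stood at 88.8 and 84.1 CPM and at 52.8 and 62.2 CPM (adjusted p = 0.0776; 0.0248 and 0.0211 without an IMQ knockout library), and Sox9 at 166 and 121 CPM and 89.6 and 109 CPM (adjusted p = 0.0597; 0.0284 without the male untreated control). Of 14 tested hair shaft and inner root sheath genes 1 was called, higher, beside 17.7% of all tested genes. The median log2 fold change of this list was -0.54, with 10 members below 0. The called gene, Padi3, an arginine deiminase, rose from 0.255 and 0.144 CPM to 1.92 and 1.48 CPM (1.65 ± 0.26, adjusted p = 0.00469). In these whole-epidermis samples fewer cells of a type and less RNA per cell cannot be told apart.

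Among Ovol genes and factors of epithelial-mesenchymal transition, 2 of 12 rose and 3 fell (17.7% and 14.5% of all tested genes). Zeb1, a repressor of epithelial genes, went from 5.03 and 4.25 CPM to 19.9 and 18.7 CPM (log2 fold change 1.95 ± 0.18, adjusted p = 0.00144). Snai2, another such repressor that basal keratinocytes express, went the other way, from 83.6 and 50.4 CPM to 24.4 and 14.7 CPM (-1.75 ± 0.36, adjusted p = 0.0107; 0.0546 without the male IMQ and 0.053 without the female untreated control). Zeb2, called higher, and Esrp1 and Ovol1, called lower, were the other members. Of the 3 falls 1 was called without the female IMQ control. Zeb1 is also expressed by dermal and immune cells, whose markers are given below, and their part in its rise was not tested.

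Signalling and transcription factor genes moved in different directions. Of 18 NF-kappaB subunits and feedback genes, 6 rose (3 to 6 with a library left out, the fewest without the male untreated control) and none fell, among them Relb (log2 fold change 0.78 ± 0.15, adjusted p = 0.009) and the apoptosis inhibitor Birc3, from 49.6 and 45.6 CPM to 107 and 109.6 CPM (1.18 ± 0.19, adjusted p = 0.00473). Bcl3, an IkappaB-like coactivator that is also a STAT3 target, rose from 31.9 and 20.1 CPM to 95.7 and 128 CPM (2.10 ± 0.31, adjusted p = 0.00382). Tnfaip3, the A20 feedback inhibitor, stood at 709 and 689 CPM and at 699 and 565 CPM (adjusted p = 0.596). Of 13 STAT3, SOCS and C/EBP genes 3 rose, Bcl3, Stat3 and Cebpd (2 or 3 with a library left out), and Tyk2 fell. The call of Tyk2 was lost without the male IMQ (adjusted p = 0.111), female untreated (0.11) or male untreated control (0.0574) and without the male untreated knockout library (0.0525). Cebpd, an acute-phase transcription factor, rose from 51.4 and 54.7 CPM to 129 and 167 CPM (1.46 ± 0.15, adjusted p = 0.00167). Stat3 itself rose by 0.72 ± 0.19 (adjusted p = 0.0259; 0.126 without the male IMQ and 0.123 without the male untreated control). Socs3, its feedback inhibitor, stood at 401 and 474 CPM and at 257 and 333 CPM (adjusted p = 0.148).

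AP-1 and immediate early genes fell at 6 of 20 members, with a median log2 fold change of -0.60, and DESeq2 called 12 lower. Batf rose with limma in the full set (adjusted p = 0.0499) and was not called with edgeR or DESeq2 or without any 1 of the 4 control libraries. Jun stood at 1419 and 1351 CPM untreated and at 818 and 786 CPM under IMQ (-0.79 ± 0.18, adjusted p = 0.0154). Jun was not called without the male IMQ (0.0683) or female untreated control (0.0531). Egr1 fell from 1994 and 2206 CPM to 999 and 1246 CPM (-0.91 ± 0.23, adjusted p = 0.023; 0.102 without the female IMQ, 0.0547 without the female untreated and 0.0878 without the male untreated control). Fos, from 2482 and 2919 CPM to 1379 and 1658 CPM, was not called (adjusted p = 0.144), though it was without either IMQ knockout library (0.016 and 0.0146), and neither were Fosl1 and Junb. Between 3 and 11 members fell with a library left out, the fewest without the female IMQ control.

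Genes for making ribosomes rose together at 20 of 21 members, with a median log2 fold change of 1.13. Dkc1, the pseudouridine synthase of ribosomal RNA, went from 27.1 and 23.4 CPM to 75.2 and 114 CPM (1.86 ± 0.20, adjusted p = 0.002). Polr1b, a subunit of RNA polymerase I, rose by 1.95 ± 0.26 (adjusted p = 0.00312), Fbl, the fibrillarin methyltransferase, by 1.13 ± 0.15 and Rrp12 by 1.78 ± 0.34. The abundant nucleolar gene Ncl rose from 967 and 794 CPM to 1448 and 1893 CPM (0.92 ± 0.18, adjusted p = 0.0101), a call lost without the male IMQ (0.0536) or male untreated control (0.0539). With a library left out, 12 to 21 members were called, the fewest without the male untreated control. Polyamine synthesis is often coupled to growth, and Srm, for spermidine synthase, went from 23.3 and 15.5 CPM to 100.1 and 143 CPM (2.62 ± 0.24, adjusted p = 0.0015). Sms and the arginine transporter gene Slc7a1 were the other 2 of 12 arginine, polyamine and tryptophan genes to rise (2 to 4 rose with a library left out). Slc7a1 (adjusted p = 0.0471) lost its call when any library other than the female untreated control was left out (adjusted p = 0.057 to 0.173). Odc1, which opens polyamine synthesis, stood at 212 and 112 CPM and at 274 and 268 CPM (adjusted p = 0.0614; 0.0122 without the female untreated control).

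Proteasome genes rose at 21 of 25 members by smaller amounts, with a median log2 fold change of 0.63 and 19 to 21 calls with a library left out. Psmb3, a core subunit, went from 70.3 and 84.6 CPM to 140.0 and 150.4 CPM (0.91 ± 0.13, adjusted p = 0.00359), and the regulator Psme3 from 104.6 and 83.4 CPM to 166 and 183 CPM (0.90 ± 0.14, adjusted p = 0.00431). The interferon-inducible immunoproteasome subunits Psmb8 (adjusted p = 0.25), Psmb9 (0.854) and Psmb10 (0.067; 0.0274 without the male IMQ control) were not called. Psmb9 stood at 25.7 and 31.0 CPM untreated and at 37.3 and 18.7 CPM under IMQ, so its groups overlapped. Glycolysis and hypoxia response genes rose at 14 of 23 members (6 to 13 with a library left out, the fewest without the male untreated control). Ldha, for lactate dehydrogenase, went from 426 and 362 CPM to 821 and 855 CPM (1.09 ± 0.13, adjusted p = 0.00234), and Egln3, an oxygen sensor, rose by 1.22 ± 0.20. The glucose transporter Slc2a1 stood at 205 and 121 CPM and at 207 and 258 CPM (adjusted p = 0.213). Nuclear-encoded respiratory chain genes rose at 8 of 25 members (4 to 7 with a library left out, the fewest without the male IMQ control), for example Cyc1, for cytochrome c1 (0.81 ± 0.11, adjusted p = 0.00329), and Cycs, for cytochrome c (0.93 ± 0.14, adjusted p = 0.00453).

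Cell cycle genes did not rise as a group: 3 of 35 were called higher and 5 lower, with a median log2 fold change of -0.11. Of all tested genes 17.7% were called higher and 14.5% lower. Mki67, the proliferation marker Ki-67, stood at 44.6 and 26.9 CPM untreated and at 36.4 and 21.9 CPM under IMQ (-0.29 ± 0.37, adjusted p = 0.578). Top2a, a topoisomerase of dividing cells, stood at 37.2 and 25.0 CPM and at 53.9 and 29.9 CPM (adjusted p = 0.426). For both genes the female library lay above the male one in each group, and the groups overlapped. Gins2, of the replicative helicase, fell from 6.54 and 6.56 CPM to 1.98 and 3.001 CPM (-1.26 ± 0.23, adjusted p = 0.00693), and the replication licensing gene Cdc6 fell by 1.22 ± 0.24 (adjusted p = 0.00986; 0.0525 without the female untreated control). Rrm1, Cdc45 and E2f1 also fell, and Cdk1, Ube2c and Mcm6 rose. Between 0 and 3 members were called higher and 2 to 5 lower with a library left out, the fewest higher without the female IMQ and the fewest lower without the female untreated control.

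Circadian clock genes fell at 8 of 19 members (14.5% of all tested genes fell), and Arntl, which encodes BMAL1, rose. Dbp, an output factor of the clock, stood at 27.3 and 32.3 CPM untreated and at 3.30 and 2.19 CPM under IMQ and was 9.46-fold lower (log2 fold change -3.24 ± 0.24, adjusted p = 0.00106). Per3 fell from 56.6 and 50.5 CPM to 11.5 and 11.3 CPM (-2.18 ± 0.25, adjusted p = 0.00215), and the repressor Nr1d1 from 109 and 97.1 CPM to 41.8 and 36.9 CPM (-1.38 ± 0.13, adjusted p = 0.00144). The Dbp relatives Tef and Hlf fell by 1.20 ± 0.16 and 1.88 ± 0.31. Female and male libraries of a group were close in these genes. Arntl rose by 0.55 ± 0.14 (adjusted p = 0.0237; 0.0572, 0.0943 and 0.115 without the female IMQ, male IMQ and male untreated control). Per2 was not called (adjusted p = 0.478). Dbp, Per3 and Arntl peak at different hours, and the hour of collection is not given for either group, so IMQ and hour cannot be told apart.

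Few lipid genes were called. Of 28 sterol and fatty acid synthesis genes DESeq2 called 2 higher and 4 lower, and limma called Dhcr7 alone, lower (-0.49 ± 0.13, adjusted p = 0.0269; 0.0618 without the female IMQ, 0.108 without the male IMQ and 0.104 without the male untreated control). Hmgcs1, an early enzyme of cholesterol synthesis, stood at 511 and 590.3 CPM and at 482 and 788 CPM (adjusted p = 0.692). Of 24 barrier lipid enzymes 5 rose and Lipm fell (17.7% and 14.5% of all tested genes rose and fell). The lipoxygenase gene Alox12b rose from 98.7 and 154 CPM to 238 and 324 CPM (1.17 ± 0.24, adjusted p = 0.0117; 0.0612 without the male IMQ and 0.0504 without the female untreated control), and the cholesterol sulfotransferase gene Sult2b1 by 0.66 ± 0.12 (adjusted p = 0.00646). Cers3, Degs2 and Lipk were the others, and 2 to 5 members rose with a library left out, the fewest without the male IMQ control. Of 17 sebaceous gland genes limma called 0 (4 under 0.05 before adjustment), DESeq2 5 and edgeR 1, these lower, and their median was -0.05 for the female and -1.53 for the male pair. Scd3, a sebaceous desaturase, stood at 94.9 and 279 CPM untreated and at 47.5 and 42.8 CPM under IMQ (adjusted p = 0.057), and it was called without the female untreated control (0.0328) or without either IMQ knockout library (0.0292 and 0.0282).

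Of 18 NRF2 and oxidative stress genes 3 rose (1 to 3 with a library left out) and 3 fell (2 to 4). Slc7a11, the cystine transporter, went from 0.997 and 0.925 CPM to 17.1 and 82.5 CPM and rose 26.2-fold (log2 fold change 4.71 ± 0.72, adjusted p = 0.00435). The catalase gene Cat fell from 134 and 134 CPM to 63.8 and 50.8 CPM (-1.23 ± 0.23, adjusted p = 0.00822) and the glutathione transferase gene Gstm1 by 1.26 ± 0.25. Sod2, Prdx1 and Nqo1 were the other calls, beside 17.7% of all tested genes called higher and 14.5% called lower. Sod2 (adjusted p = 0.0495) lost its call when any library other than the female IMQ control was left out (adjusted p = 0.0709 to 0.179). Nqo1 fell by 0.83 ± 0.20 (adjusted p = 0.018; 0.0616 without the female IMQ and 0.0899 without the male untreated control), and Hmox1 was not called (adjusted p = 0.431). Of 12 tested Notch receptors, ligands and targets 3 fell, the receptor genes Notch1 (-0.67 ± 0.12, adjusted p = 0.00673) and Notch3 (-0.88 ± 0.12, adjusted p = 0.0035) and the target Hey1. Hey1 was not called without any 1 of the 4 control libraries (adjusted p = 0.0515 to 0.106), and 2 to 5 genes of the list fell with a library left out. Of 6 genes of the aryl hydrocarbon receptor and its targets 1 rose and 2 fell, Cyp1b1 among them, with 0 or 1 higher and 0 to 2 lower on leaving out a library, and none lower without the male IMQ or the male untreated control. Ahrr, the receptor's repressor and target, rose from 3.18 and 2.51 CPM to 5.58 and 5.297 CPM (0.83 ± 0.19, adjusted p = 0.0149; 0.0504 without the female IMQ and 0.08 without the male untreated control). The aryl hydrocarbon receptor gene Ahr fell (-0.75 ± 0.18, adjusted p = 0.0181), a call lost without the male IMQ (0.0896), female untreated (0.0534) or male untreated control (0.0664). Its target Cyp1a1 stood at 12.8 and 20.9 CPM and at 12.9 and 5.56 CPM (adjusted p = 0.235).

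Skint genes, a mouse family expressed in skin and thymus whose founder selects epidermal gamma-delta T cells, fell at 4 of 11 members and rose at none. Skint7 stood at 106 and 52.4 CPM untreated and at 9.51 and 7.63 CPM under IMQ and was 8.33-fold lower (log2 fold change -3.06 ± 0.34, adjusted p = 0.00202). Between 3 and 8 members fell on leaving out a library, the fewest without the male untreated control. Skint8 fell from 20.02 and 22.6 CPM to 6.15 and 7.78 CPM (-1.55 ± 0.20, adjusted p = 0.0026). Skint4 (-2.06 ± 0.49, adjusted p = 0.0186) and Skint2 were the others; the call of Skint4 was lost without the male IMQ (0.0853), female untreated (0.0698) or male untreated control (0.066). Skint genes are similar in sequence and may share reads.

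Serpins and protease inhibitors rose at 6 of 15 members, and Serpinb8 fell. Serpina3n, an acute-phase inhibitor of neutrophil proteases, had the largest fitted rise of the genes the naming rule covers, from 1.65 and 3.38 CPM to 69.5 and 177 CPM (38.6-fold, log2 fold change 5.27 ± 0.49, adjusted p = 0.00149). Timp1, a metalloprotease inhibitor, rose by 2.73 ± 0.33. Of 14 complement genes 7 rose (4 to 8 with a library left out, the fewest without the male IMQ control) and Cd55 fell. The macrophage product C1qa went from 4.55 and 3.32 CPM to 44.8 and 26.2 CPM (2.99 ± 0.27, adjusted p = 0.00144) and C1qc by 3.11 ± 0.32 on the log2 scale. C3, the central component, stood at 3.46 and 4.05 CPM and at 9.96 and 10.6 CPM (1.34 ± 0.43, adjusted p = 0.0483). The call of C3 was lost without any 1 of the 4 control libraries (adjusted p = 0.116 without the female IMQ, 0.146 without the male IMQ, 0.166 without the female untreated and 0.12 without the male untreated control) and without either untreated knockout library (0.0579 and 0.0558). Of 12 tested prostaglandin and lipid mediator genes 3 rose (1 to 3 with a library left out). Ptges and Ltb4r1 lost their calls without the male IMQ (adjusted p = 0.0916 and 0.108) or male untreated control (0.102 and 0.113). The phospholipase gene Pla2g4e rose from 1.62 and 4.51 CPM to 17.3 and 57.0 CPM (3.29 ± 0.61, adjusted p = 0.00783). Ptgs2, the inducible cyclooxygenase, was not called (adjusted p = 0.59).

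The 10 largest rises by the naming rule were Serpina3n, Rsad2, Sh2d5, Sprr2i, Prss27, Lcn2, Mx1, Crispld2, Cxcl10 and Cmpk2. Prss27, an epithelial serine protease, went from 4.198 and 4.77 CPM to 112 and 227 CPM (32.1-fold, log2 fold change 5.004 ± 0.54, adjusted p = 0.002). Sh2d5, an adaptor gene, went from 0.464 and 0.144 CPM to 17.2 and 46.6 CPM (5.19 ± 0.44, adjusted p = 0.00139), and Crispld2, a secreted protein gene, from 19.4 and 4.10 CPM to 254 and 280.3 CPM (4.80 ± 0.82, adjusted p = 0.00604). The 10 largest falls were Iqcn, Rspo3, Frem2, Dbp, Mettl7a1, Fam71a, Cldn8, Skint7, Sostdc1 and Tppp. Rspo3, an amplifier of Wnt signals, fell from 5.15 and 6.96 CPM to 0.150 and 0.0741 CPM (-3.41 ± 0.24, adjusted p = 0.000887). Frem2, an extracellular protein of the epidermal basement membrane, fell from 30.4 and 18.6 CPM to 2.61 and 1.33 CPM (-3.35 ± 0.37, adjusted p = 0.00204). Tppp, a tubulin-binding protein gene, fell from 115 and 121 CPM to 16.5 and 14.0 CPM (-2.92 ± 0.30, adjusted p = 0.00176). Fam71a fell by 3.11 ± 0.81 (adjusted p = 0.0246; 0.0866 without the female IMQ, 0.0735 without the male IMQ and 0.123 without the male untreated control).

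Some markers of other cells in the preparation also differed, and of all tested genes 17.7% were called higher and 14.5% lower. Macrophage markers rose at 8 of 13 tested members (6 to 8 with a library left out), and their summed level was 147 and 123 CPM untreated and 367 and 291 CPM under IMQ. Neutrophil markers rose at 3 of 7 tested members, with log2 fold changes above 0 for 5 and below 0 for 2. Among those under the filter on low counts, Csf3r had 1 untreated read and 34 under IMQ. Retnlg had 1 and 4, Camp 1 and 2 and Mmp8 0 and 4. Langerhans and antigen-presenting cell markers rose at 3 of 14 (0 to 8 with a library left out), while Cd207, for langerin, stood at 490.2 and 257 CPM and at 595 and 254 CPM (adjusted p = 0.85). T cell markers rose at 4 of 14 (1 to 3 with a library left out, 1 without the male IMQ or the female untreated control) and Cd27 fell; Cd3e stood at 6.59 and 8.38 CPM and at 8.67 and 7.59 CPM (adjusted p = 0.624). The T cell activation gene Il2ra rose from 0.765 and 0.693 CPM to 3.24 and 2.07 CPM (log2 fold change 1.34 ± 0.26, adjusted p = 0.0097; 0.0514 without the male untreated control). Plasmacytoid dendritic cell markers rose at 3 of 5 tested members (1 or 2 with a library left out, 1 without any control other than the female IMQ one), Ccr9 and, from keratinocytes or interferon as well, Ly6d and Bst2, and Tcf4 fell; Siglech, their defining marker, stood between 0.0464 and 0.222 CPM and was not tested. The part of these cells in the results was not tested.

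Markers of dermal and deeper tissue stood at unequal levels between libraries, and whether the amount of such tissue differed was not tested. Summed fibroblast markers stood at 1083 and 1264 CPM untreated and at 910.4 and 3948 CPM under IMQ, the male treated library standing apart, and 1 of 16 tested members, Fbn1, was called. Summed skeletal muscle markers were 7.68 and 12.3 CPM untreated and 129.5 and 10.9 CPM under IMQ, and summed endothelial markers 5.91 and 4.97 CPM and 43.1 and 11.2 CPM, the female treated library standing apart. Of 10 tested muscle markers limma called 0 (2 under 0.05 before adjustment), DESeq2 6 and edgeR 1. Limma called more with the male IMQ control left out, when the female with high muscle marker levels stood alone for its group. Endothelial markers rose at 3 of 9, Flt1, Cdh5 and Emcn (1 to 8 with a library left out), beside 17.7% of all tested genes. Summed adipocyte markers were 25.5 and 19.4 CPM and 65.5 and 48.8 CPM, with 3 of 7 members higher (1 to 5 with a library left out, 1 without any control other than the male IMQ one). Among genes named above, Ccl2, Cxcl13, Timp1, Zeb1 and Rspo3 are also expressed by dermal cells, and the part of dermal RNA in their values was not tested.

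**Figure D3:**
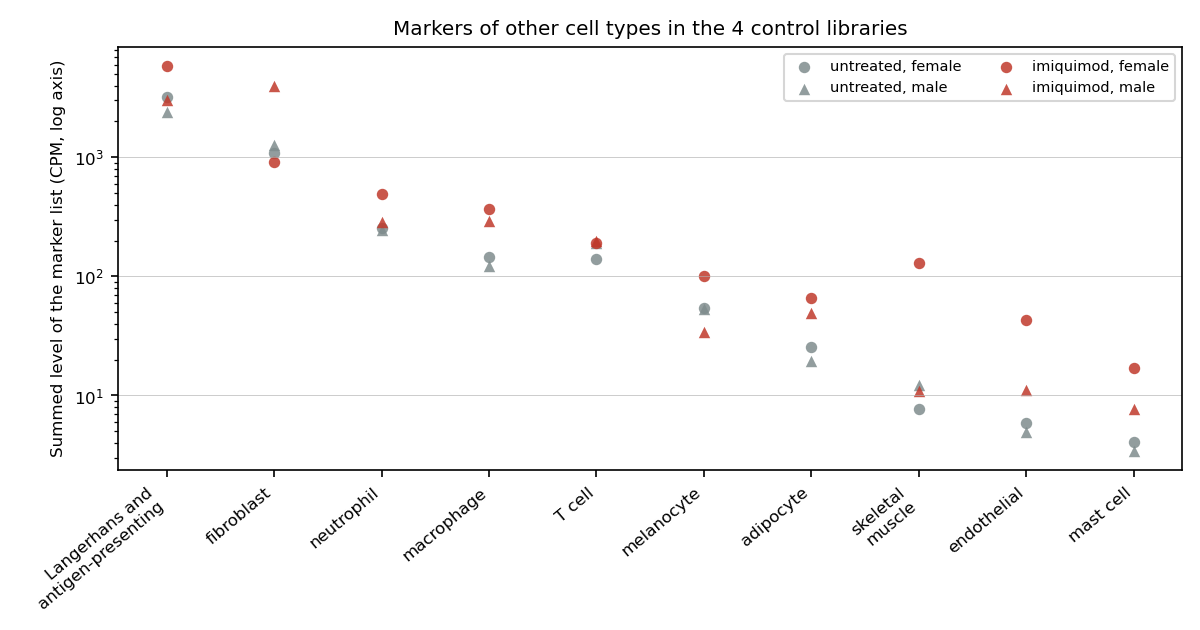
Summed level of each list of other cell types' markers (CPM, log axis) in the 4 control libraries; circles are female, triangles male, grey untreated and red IMQ. Both treated libraries lie above both untreated ones for neutrophil, macrophage, T cell, adipocyte, endothelial and mast cell markers, the treated male stands apart for fibroblast markers (3948 CPM) and the treated female for skeletal muscle markers (129.5 CPM). Little of the untreated neutrophil sum came from Cxcr2, Csf3r or Retnlg.

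List medians differed between the female and the male pair of controls. Several lay on opposite sides of 0: skeletal muscle markers had 3.32 for the female and -0.16 for the male pair, melanocyte markers 1.64 and -0.11, and Lce1 genes -0.41 and 0.57. The interferon response list had a median of 3.50 for the female and 2.04 for the male pair, and other chemokines 1.41 and 0.74. The Lce3 and Sprr list had 0.77 for the female and 2.89 for the male pair, antimicrobial genes 1.85 and 2.97, and ribosome biogenesis genes 0.81 and 1.54. Neutrophil-attracting chemokines were close, at 3.44 and 3.74, and so were proteasome genes, at 0.67 and 0.68. With 1 library per sex and treatment these differences between pairs have no replicates and no test, and sex cannot be told apart from the single animal or sample.

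**Figure D4:**
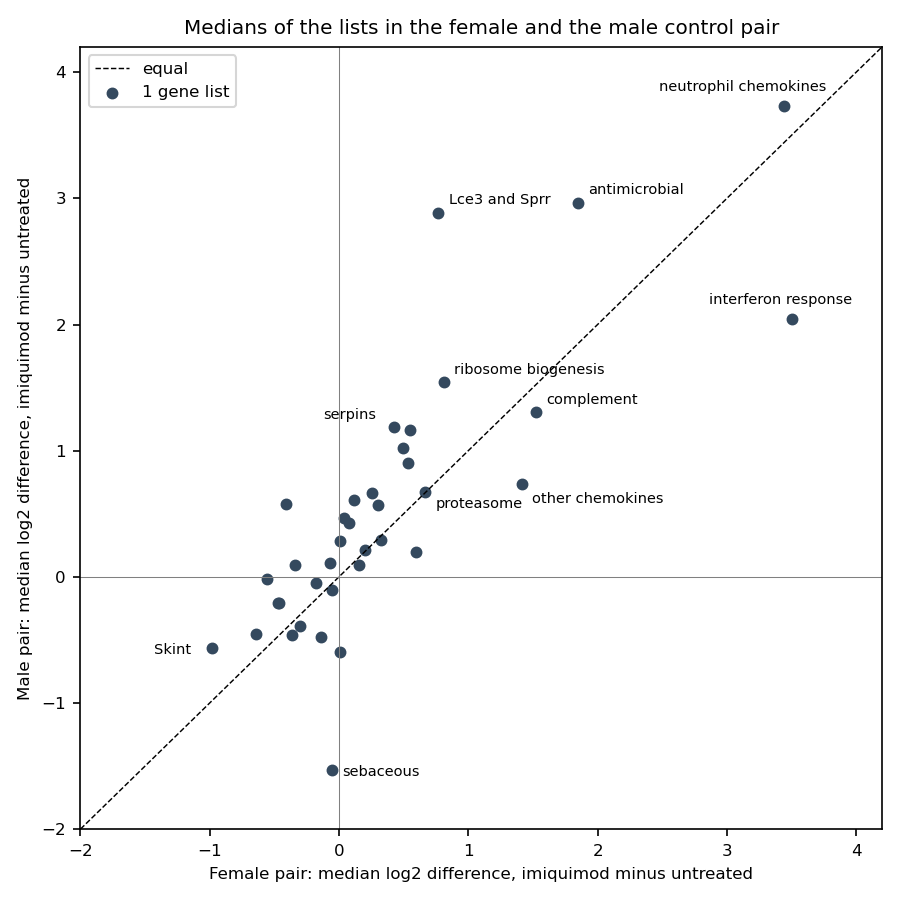
Median log2 difference of each gene list, IMQ minus untreated, in the female (horizontal) and the male (vertical) control pair; each point is a list and the dashed line marks equal values. The interferon response list lies below the line (3.50 and 2.04) and the Lce3 and Sprr list above it (0.77 and 2.89).

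The 4 other libraries, labelled Ovol1 -/-, were also compared between IMQ and untreated, fitted together with the controls and with 1 shared estimate of spread per gene. Their genotype label was the same in both arms, while the controls were +/- untreated and +/+ under IMQ. Any difference between the responses therefore includes that change of genotype in the controls. The -/- labels could not be checked by the level of Ovol1. In these libraries it stood at 729 and 704 CPM untreated and 435 and 427 CPM under IMQ, above the controls, and the deleted part of the gene is not given. In these libraries 7257 genes were called (50.9% of those tested). Of the 4593 genes called in the controls, 4537 had the same sign and 4101 were called in the same direction, 89.3% of the control calls and 56.5% of the labelled knockout calls, and 4 were called in opposite directions. Over the control calls the median absolute log2 fold change was 0.89 for controls and 1.07 for labelled knockouts, a comparison that the choice of the genes in the controls affects. The test of the difference between the responses called 0 genes with limma (0.00%; smallest adjusted p = 0.197; 1498 genes under 0.05 before adjustment). The same test called 99 genes with DESeq2 and 0 with edgeR, and limma called 1 gene without the female IMQ control.

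The interferon response list stood at 2.80 for controls and 2.19 for labelled knockouts, ribosome biogenesis at 1.13 and 1.62, the proteasome at 0.63 and 0.89 and neutrophil-attracting chemokines at 3.48 and 4.59. The Lce1 list stood at 0.03 and -2.43, with 0 and 13 of 14 members called lower, and the sterol and fatty acid synthesis list at 0.08 and -0.99, with 1 and 21 of 28 called lower. Over all 14262 genes tested, 2065 were called lower in controls and 3558 in labelled knockouts. Markers of other cells also stood apart, skeletal muscle at 1.58 and 0.28, endothelial cells at 1.23 and 0.27, macrophages at 1.47 and 0.52, adipocytes at 1.59 and 0.64 and fibroblasts at 1.23 and 0.49, and their part in the other medians was not tested. Lce1b, at 133 and 186 CPM untreated and 97.0 and 190.1 CPM under IMQ in the controls, stood at 103 and 108 CPM and at 7.06 and 20.7 CPM in the labelled knockouts (difference of log2 responses -2.85 ± 0.69, adjusted p = 0.453). Il17f, called in the controls, stood at 0.551 and 0.245 CPM and at 0.803 and 0.714 CPM there (difference -1.46 ± 0.33, adjusted p = 0.453). Neither difference passed the test, and a p that misses the threshold does not show that the responses were alike. The smallest p-values of the difference were those of Fam83a, a gene of growth factor signalling, which rose by 1.23 ± 0.23 under IMQ in controls and by 4.33 in labelled knockouts, Itga9, an integrin, at 1.2401 and -1.48, and Prag1, a pseudokinase, at -0.02 and 2.47. Each of the 3 had an adjusted p of 0.197 for the difference.

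**Figure D5:**
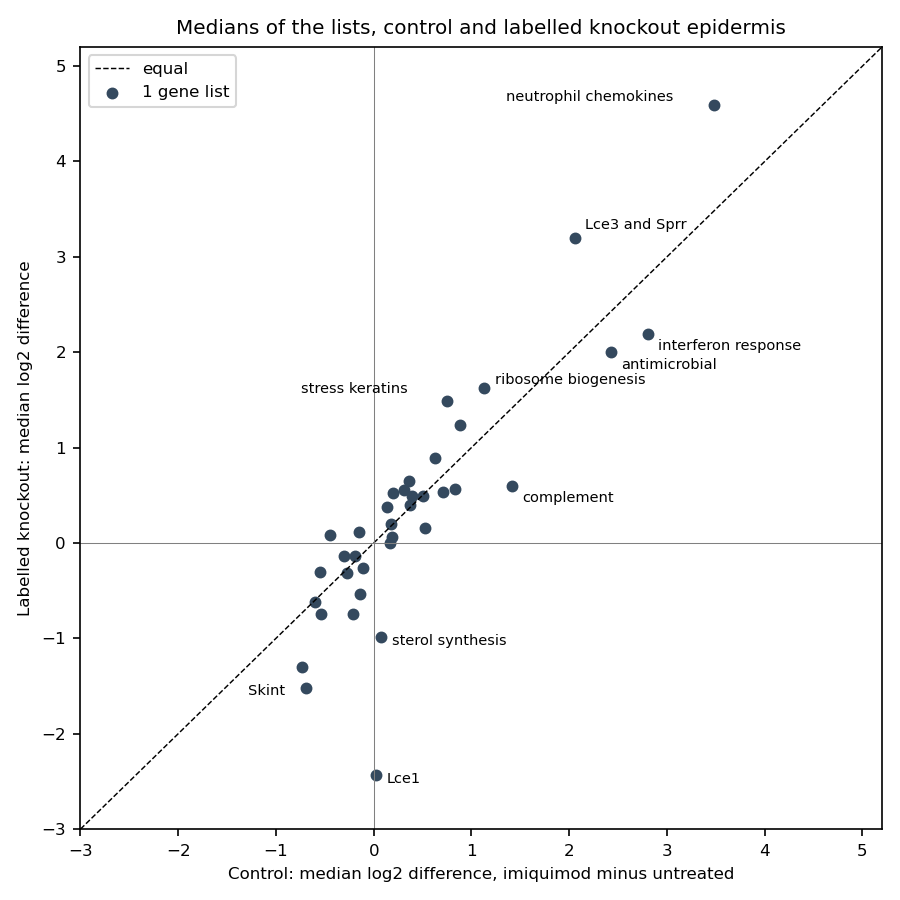
Median log2 difference of each gene list, IMQ minus untreated, in control epidermis (horizontal) and in epidermis labelled Ovol1 knockout (vertical); each point is a list, marker lists of other cells are not drawn, and the dashed line marks equal values. The Lce1 list (0.03 and -2.43) and the sterol synthesis list (0.08 and -0.99) lie below the line, and the Lce3 and Sprr list (2.06 and 3.20) and neutrophil-attracting chemokines (3.48 and 4.59) above it.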

How the data were processed

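Polyadenylated RNA of mouse back skin epidermis was sequenced from 8 libraries, a female and a male in each of 4 groups. Reads were processed with Trimmomatic 0.35, STAR 2.5.2a, DESeq2 1.24.0 and R 3.6.1 on mm10, per the submitters' processing notes; the read counter, annotation and filter were not given in the sources. The authors deposited a normalized signal per gene, reads divided by a size factor, in 1 table for the untreated and 1 for the treated libraries. The step between values gave back whole reads for 100% of values within 0.001 (28600596 to 43080052 reads per control library), and 16902 genes were in both tables. TMM-scaled log2(CPM + 0.5) values of all 8 libraries were fitted in R 4.3.3 with limma 3.58.1 (4 group means, trend, robust), for the 14262 genes with a mean of at least 10 recovered reads over the 4 control libraries, with Benjamini-Hochberg adjustment and a threshold of 0.05. The 4 knockout libraries add to the estimate of spread. On the recovered reads, edgeR 4.0.16 called 4526 and DESeq2 1.42.0 called 5041 genes in the control comparison. The code was tested on simulated data.

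Other scalings, filters, pseudocounts, models and thresholds, a block for sex and leaving out each library were tried. A fold against 0 reads is a bound against 3 reads over the group, and intervals and bounds cover counting error only. Gene positions are GENCODE vM21 (GRCm38). Genes were named by rule: Ovol1 with Ovol2, the 10 top rises and 10 top falls by fold with the same direction in both sex pairs (no predicted genes, pseudogenes, Xist or Y genes), fixed anchor members and up to 3 further called members of each list, and the 5 smallest p-values per direction for the difference of responses; members named to complete a short count were chosen after their values were seen. The members and lists were chosen with earlier results of these data known. Mitochondrial transcripts were not analysed here. Some genes of the lists are not reported here.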

Additional observations from a re-analysis of the deposited data

Results flagged for a closer look

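In 4 genes named above or chosen by the same rule, both control pairs moved one way under IMQ and both labelled knockout pairs the opposite way. Itga9 had a log2 fold change of 1.2401 for control libraries and -1.48 for those labelled knockout, a difference of -2.72 (limma adjusted p = 0.197). Fst, for the activin inhibitor follistatin, stood at -0.87 and 0.29, a difference of 1.16, and Nqo1, a quinone reductase, at -0.83 and 0.07, a difference of 0.90 (limma adjusted p = 0.453 for each). Cyp1b1, a cytochrome P450 enzyme, stood at -0.84 and 0.39, a difference of 1.22 (limma adjusted p = 0.453). None of the 4 differences passed the test over all genes. The control call of Fst was lost without the female IMQ, female untreated or male untreated control (log2 fold changes -0.53, -0.99 and -0.79). That of Cyp1b1 was lost without the female IMQ, male IMQ or male untreated control (-0.83, -0.84 and -0.55). It was also lost without either IMQ knockout library (-0.84 and -0.86).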

How the results depend on the processing

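The count of 4593 genes was 2914 with the 4 control libraries alone (2837 shared) and 2663 to 4390 with a library left out, the fewest without the male untreated control. Requiring a 2-fold change left 1882. The 2528 higher genes became 1376 with the deposited scaling, 1538 with the 4 control libraries, 969 at 2-fold and 1481 to 2368 with a library left out. The 2065 lower genes became 3739, 1376, 913 and 1182 to 2096. Settings chosen after seeing the data gave 4702 to 7362 labelled knockout calls with a library left out, and the difference of responses had 0 to 1, and 99 with DESeq2. Apart from the 4 control libraries alone, which leave fewer samples, the cause was not tested. The labels pair libraries by sex alone: the difference of female and male correlated between groups at 0.145 to 0.545, and with the replicate block limma called 5232 genes (4544 of the 4593 among them) and edgeR 5123. The block called 6 (limma) or 8 (edgeR) of the 45 uncalled named genes, and moved late differentiation genes from 1 higher and 6 lower to 4 and 9 with either tool.

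Of 196 genes named by the rule and tested, 151 were called. Of these, 95 kept the call with each library left out, 24 lost it with the 4 control libraries alone, 17 with the deposited scaling, 11 with upper-quartile scaling and 0 to 10 with each other scaling, filter, pseudocount, moderation, model or block. None of the 151 turned sign under any setting run, and 19 genes that were not called did. Signs turned with the deposited scaling for Myd88 (-0.0229), Krt1 (-0.15), Lor (-0.14), Krt5 (-0.17), Hmgcs1 (-0.11), Ptgs2 (-0.0428), Cd207 (-0.15) and Cd3e (-0.15). Upper-quartile scaling turned Krt1 (-0.0168), Lor (-0.00141), Krt5 (-0.0399), Cd207 (-0.01205) and Cd3e (-0.0141), and Lce1c turned to 0.0403 with edgeR and 0.0114 with DESeq2. With a library left out, log2 fold changes ranged from -0.44 to 0.15 for Il1rn, -0.69 to 0.27 for Lce1b, -0.51 to 0.45 for Lce1c, -0.31 to 0.56 for Krt1, -0.38 to 0.0658 for Krt10, -0.47 to 0.71 for Lor, -0.0609 to 0.22 for Krt5, -0.19 to 0.52 for Hmgcs1 and -0.66 to 0.0702 for Mki67. They ranged from -0.0273 to 0.81 for Top2a, -0.31 to 0.000801 for Tnfaip3, -0.54 to 0.13 for Fosl1, -0.58 to 0.39 for Psmb9, -0.45 to 0.29 for Gja1, -0.49 to 0.74 for Cd207, -0.0714 to 0.27 for Cd3e and -0.16 to 0.12 for Prag1. Where an arm keeps 1 library, that library is assumed to vary like the other groups.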
